A study of Mus musculus with 2 samples.

Results

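Cd7 and Cd52, 2 of the 31053 genes counted in this single-cell study, encode surface molecules of lymphocytes. Both genes were chosen by their measured values in these cells: among the abundant genes of dendritic epidermal T cells (DETCs), they stood near the top of the order of higher levels after Skint1 antibody. Their DETC ratios are therefore given as a description. Their values in other cell classes, in divisions of DETCs and in single cells bear on how widely that difference was spread.

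The cells came from ear epidermis of wild-type (WT) female FVB/NJ mice, 8 weeks old, injected intradermally 7 d earlier with an isotype control antibody or with an antibody against Skint1, the keratinocyte protein that shapes the selection of DETCs. Cells were sorted as live and CD45+EpCAM-MHC-II-, and each treatment gave 1 droplet library of 3′ ends, so treatment and library cannot be told apart, and no test between treatments was made. Unique molecular identifiers (UMIs), each of which marks 1 captured RNA molecule, were summed over the cells of a class and divided by all UMIs of that class to give counts per 1000000 (CPM). Ratios are log2 ratios of CPM, Skint1 antibody over isotype. The range in parentheses is a 95% interval that covers counting error only and no variation between animals. For levels and ratios it also leaves out variation between cells, so it is too narrow where cells of a class differ widely.

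CD7 is a glycoprotein of the immunoglobulin superfamily carried by T cells, natural killer cells and their precursors. It binds SECTM1 and galectin-1, and its cytoplasmic tail recruits phosphoinositide 3-kinase. CD52 is a very short peptide held in the membrane by a glycosylphosphatidylinositol (GPI) anchor and covered with sugar. It is abundant on mature lymphocytes, is the target of the antibody CAMPATH-1, and its soluble form binds Siglec receptors. DETCs are γδ T cells that live in the mouse epidermis among keratinocytes and carry 1 invariant receptor.

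The transcripts behind the counts differ in size. Cd7 (ENSMUSG00000025163) lies on the minus strand at chr11:121036747-121039418 of GRCm38. Its transcript has 4 exons and 982 bases, of which 633 code for 210 amino acids. Cd52 (ENSMUSG00000000682) lies on the minus strand at chr4:134082448-134095082, with 2 exons, 514 bases and a coding sequence of 225 bases for 74 amino acids. That sequence is shown whole because it shows how short the CD52 precursor is. Of Cd7 the last 300 coding bases are shown. Only their 3′ part encodes the end of the protein that reaches into the cytoplasm. Capitals mark the start and stop codons of Cd52 and the stop codon of Cd7, read 5′ to 3′ from GENCODE vM21 transcripts of the reference strain, which is not FVB/NJ.
Cd52: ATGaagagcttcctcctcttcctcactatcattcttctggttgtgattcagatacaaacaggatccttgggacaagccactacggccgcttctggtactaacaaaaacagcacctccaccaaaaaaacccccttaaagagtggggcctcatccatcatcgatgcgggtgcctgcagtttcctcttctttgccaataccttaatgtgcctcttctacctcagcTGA
Cd7: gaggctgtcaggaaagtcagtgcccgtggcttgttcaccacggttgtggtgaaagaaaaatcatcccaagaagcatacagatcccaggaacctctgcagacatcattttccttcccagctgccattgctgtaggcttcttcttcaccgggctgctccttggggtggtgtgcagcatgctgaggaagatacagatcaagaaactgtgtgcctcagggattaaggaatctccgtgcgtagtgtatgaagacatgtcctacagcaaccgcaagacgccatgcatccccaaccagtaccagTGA
Each gene is overlapped by one on the plus strand, Cd7 by the antisense gene Gm11775 and Cd52 by Crybg2. Sectm1b, which encodes a CD7 ligand, lies 14040 bases from Cd7.

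After filters of 500 to 2500 genes and no more than 12% mitochondrial UMIs, 4242 cells remained with isotype and 5961 with Skint1 antibody. DETCs were barcodes with at least 3 UMIs of Trdc, at least 3 UMIs of the CD3 genes Cd3d, Cd3e and Cd3g together, and none of Trac, Cd4, Cd8a or Cd8b1. They numbered 3544 and 4945, isotype first here and below. αβ T cells had at least 1 UMI of Trac and none of Trdv4, and numbered 197 and 213. Innate lymphoid cells (ILCs) had at least 3 UMIs of Il7r, Rora and Gata3 together, at most 2 of the CD3 genes and no Trdv4, and numbered 82 and 139. No DETC fell in another of these classes, while 9 and 14 barcodes were both αβ T cells and ILCs.

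The DETC label held against markers that the gate did not use. Trdv4, the δ chain of the DETC receptor, was found in 88.4% and 83.8% of DETCs, and Tcrg-V5, its γ chain, in 20.7% and 20.2%. Trdc, which the gate did use, was at 4673 and 3846 CPM in DETCs, so its level moved down between the libraries while both members moved up. Of the DETCs, 28 and 34 also met the gate for dermal γδ T cells. The αβ T class was less uniform: 39 of 197 and 57 of 213 barcodes carried Trdc. In the ILC class the summed level of 4 keratin genes was 428 and 3526 CPM, with 1 and 7 barcodes in which they made up at least 2% of UMIs. Doublets were not removed. The libraries shared 5 kept barcodes, 3 of them DETCs. DETCs of the isotype library were deeper, with a median of 4028 UMIs against 3577.

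Cd7 was highest in DETCs in both libraries. Its level there was 2692 CPM (2665 to 2718) with isotype and 3106 CPM (3081 to 3132) with Skint1 antibody. Barcodes in the dermal γδ T gate, which have markers of dermal γδ T cells and no Trdv4 UMI, overlapped the DETC class in 28 of 36 and 34 of 41 cases, because the DETC gate does not ask for Trdv4. Of these barcodes 50% and 43.9% carried 5830411N06Rik, a dermal γδ T marker, against 0.649% and 0.465% of all DETCs. They held 1005 CPM (863 to 1165) and 1524 CPM (1357 to 1706). Conventional T cells and ILCs stood below both. αβ T cells as gated held 352 CPM (312 to 396) and 549 CPM (500 to 601), and ILCs 60.1 CPM (38.1 to 90.1) and 60.7 CPM (43.3 to 82.6). Within 1 library, then, Cd7 in DETCs was 7.64-fold (6.80 to 8.62) and 5.66-fold (5.16 to 6.22) above αβ T cells as gated. Most Cd7 of that class lay in barcodes that also carried Trdc. Above αβ T cells with no Trdc the gap was 14.2-fold (11.9 to 17.2) and 56.3-fold (40.1 to 81.8), also before free RNA is considered. The gap to ILCs was 44.8-fold (29.9 to 70.7) and 51.2-fold (37.6 to 71.7) before free RNA is considered. RNA from outside cells, estimated from keratin levels in DETCs, would give a barcode about 23.4 and 27.5 CPM of Cd7, a sizeable part of the ILC level.

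Among the αβ T cells, those with Cd8a or Cd8b1 and no Cd4 or Foxp3 held Cd7 at 479 CPM (359 to 627) and 200 CPM (109 to 335), in 25 and 17 cells. Those with Cd4 alone held 25.1 CPM (6.85 to 64.3) and 179 CPM (123 to 253), from 4 and 32 UMIs in 44 cells each, and the isotype value is close to the free RNA estimate. In regulatory T cells, marked by Foxp3, all 11 Cd7 UMIs of the Skint1 antibody library came from 1 of 12 cells, against 5 UMIs in 17 isotype cells. The intervals of regulatory T cells overlapped those of ILCs and CD4 cells in the isotype library and those of CD8 and CD4 cells in the other, so these positions were not resolved. The 1 and 7 keratinocyte barcodes, with at least 2% keratin UMIs and none of the CD3 genes, had 0 UMIs of Cd7 and 0 of Cd52, which in the 7 allows up to 49.9 CPM.

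Cd52 was lowest in DETCs among the lymphocyte groups, at 1649 CPM (1628 to 1670) and 1947 CPM (1927 to 1968). The dermal γδ T gate, which shares most of its cells with the DETC class, followed with 2244 CPM (2028 to 2476) and 2484 CPM (2269 to 2713). αβ T cells held 3420 CPM (3294 to 3551) and 3339 CPM (3216 to 3465), and ILCs 3152 CPM (2977 to 3335) and 3162 CPM (3027 to 3300). αβ T cells were thus 2.07-fold (1.99 to 2.16) above DETCs with isotype and 1.71-fold above with Skint1 antibody, and ILCs 1.91-fold and 1.62-fold above. CD8 cells had the highest values, 3654 CPM (3306 to 4028) and 4582 CPM (4095 to 5112), but their interval with isotype overlapped those of CD4 cells, regulatory T cells and ILCs, and with Skint1 antibody that of CD4 cells (3822 to 4423).

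**Figure D1:**
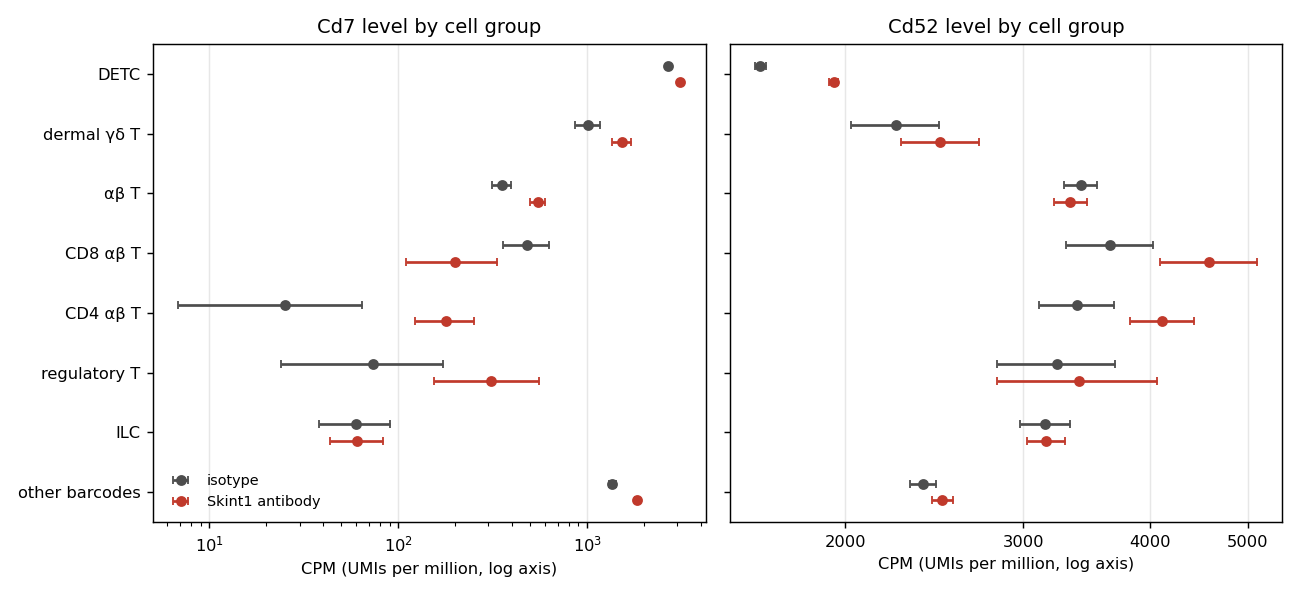
Levels of Cd7 (left) and Cd52 (right) in CPM, on log axes with different ranges, for each cell group of the isotype (grey) and Skint1 antibody (red) libraries. Points are summed levels of 1 library and bars are 95% Poisson intervals; DETCs sit highest for Cd7 (2692 and 3106) and lowest for Cd52 (1649 and 1947).

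In DETCs both genes were higher with Skint1 antibody. Cd7 had 39458 UMIs with isotype and 58110 with the antibody, a log2 ratio of 0.21 (0.19 to 0.23), or 1.15-fold. Cd52 had 24168 and 36429 UMIs, a log2 ratio of 0.24 (0.22 to 0.26), or 1.18-fold. The counts per cell moved with the levels although the cells were shallower: Cd7 averaged 11.1 and 11.8 UMIs per DETC and Cd52 6.82 and 7.37, while all UMIs per DETC averaged 4137 and 3783. Of 2859 genes with at least 50 CPM in DETCs, 124 (4.34%) were at least 1.1-fold higher with Skint1 antibody, and the median log2 ratio was -0.029. The share at least 1.1-fold lower was 14.1%. Both members are among the 124, as the way they were chosen requires. Above Cd52 in the order stood 25 genes, and above Cd7 41.

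Among the 258 genes with at least 500 CPM in DETCs, Cd52 was the 2nd and Cd7 the 5th from the top. Ier2, an immediate early gene, was next above Cd52 at 0.29, and Crip1, a small LIM-domain protein gene, next below at 0.23. Around Cd7 lay S100a6, a calcium-binding protein gene, at 0.208, and Lgals1, which encodes the CD7 ligand galectin-1, at 0.202, on either side of its own 0.207. Neighbours in an order of ratios lie near each other by construction, so their closeness is no result.

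**Figure D2:**
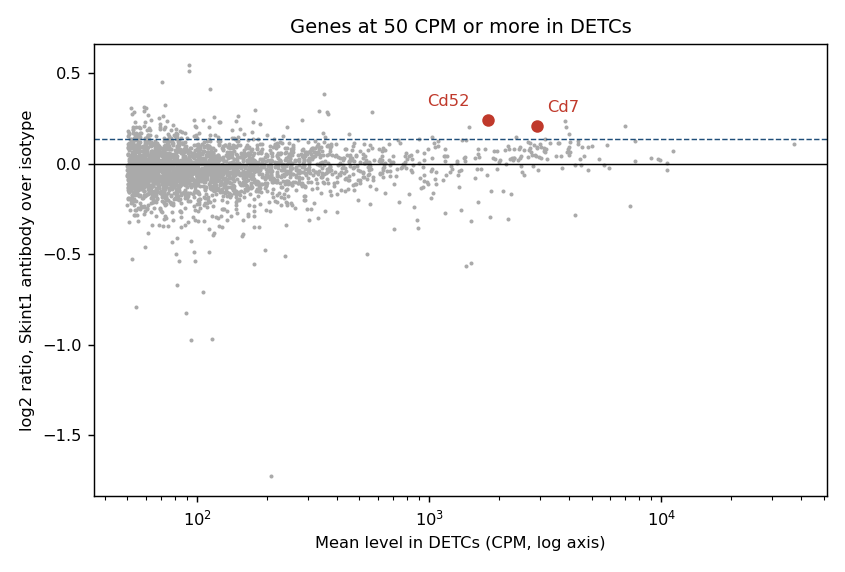
Each grey point is 1 of 2859 genes, by its mean level in DETCs (CPM, log axis) and its log2 ratio, Skint1 antibody over isotype; the solid line is no difference and the dashed line 1.1-fold. Cd52 (0.24) and Cd7 (0.21), in red, lie above the bulk of genes of like level.

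The difference was not held by a few DETCs. With each DETC thinned to 2000 UMIs, which left out 134 and 202 shallower cells, Cd7 averaged 5.48 (SD 3.10 over cells) and 6.43 (SD 3.24) UMIs, with medians of 5 and 6. The cells at the 10th and 90th percentiles held 2 and 10 with isotype and 3 and 11 with Skint1 antibody. The thinned share of DETCs with a Cd7 UMI was 96.5% (95.9 to 97.1) and 98.7% (98.4 to 99.0), and before thinning 98.9% and 99.4%. In ILCs, which hold little Cd7, the thinned share was 9.09% (3.73 to 17.8) and 12.5% (7.45 to 19.3), at median depths of 4570 and 4334 UMIs. Cd52 averaged 3.33 (SD 2.29) and 3.87 (SD 2.47) thinned UMIs with medians of 3 and 4, and was found in 92.3% (91.4 to 93.2) and 95.2% (94.6 to 95.8) of thinned DETCs and in 97.5% and 98.2% before thinning. The 10 DETCs with the most Cd7 UMIs held 0.821% and 0.640% of all Cd7 UMIs of the class.

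**Figure D3:**
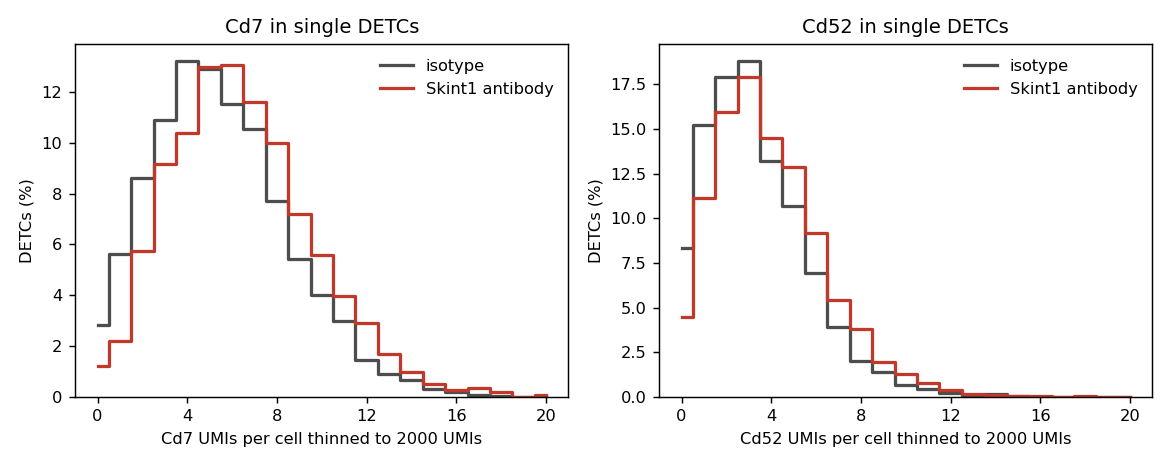
Share of DETCs (%) by the number of Cd7 (left) or Cd52 (right) UMIs, after every cell was thinned to 2000 UMIs, with isotype (grey) and Skint1 antibody (red). Cells with 0 UMIs make up 2.84% and 1.20% for Cd7 and 8.33% and 4.49% for Cd52, and the red lines lie further right except in the sparse upper tails. The figure shows a random draw separate from that of the text above, so its shares differ slightly.

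Both transcripts were then drawn together at this depth, in a separate random draw whose shares differ slightly from those above. Most DETCs carried both: 89.3% and 94.4% of thinned DETCs had at least 1 UMI of each, while 0.469% and 0.0633% had neither. Cells with Cd7 and no Cd52 made up 7.86% and 4.43%, and cells with Cd52 and no Cd7 2.38% and 1.14%.

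DETCs were next divided by what they were doing. Immediate early genes (Fos, Fosb, Jun, Junb and Egr1) respond within minutes to stimulation and to tissue digestion, and DETCs were parted at the median share of these genes. Cd7 differed by a log2 ratio of 0.18 (0.16 to 0.21) in the high division and 0.24 (0.21 to 0.26) in the low one, and Cd52 by 0.23 (0.20 to 0.27) and 0.23 (0.20 to 0.26). Cd52 was lower where immediate early genes were high, 1477 against 1827 CPM with isotype and 1737 against 2146 CPM with Skint1 antibody, and Cd7 slightly higher, 2780 against 2600 CPM and 3155 against 3061 CPM. In the 10% of DETCs with the largest share of heat shock genes, 500 and 349 cells, the ratios were 0.27 (0.21 to 0.33) for Cd7 and 0.31 (0.23 to 0.39) for Cd52. In the other DETCs they were 0.205 and 0.211, lower by 0.063 (0.0020 to 0.12) and 0.099 (0.013 to 0.18).

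DETCs with at least 3 UMIs of the chemokine gene Xcl1 and the granzyme gene Gzmc together were fewer with Skint1 antibody, 436 of 3544 and 227 of 4945. Their Cd7 level was lower than that of the other DETCs, 2056 against 2788 CPM with isotype and 2364 against 3149 CPM with Skint1 antibody. Within each division the difference between libraries was there: Cd7 had a log2 ratio of 0.20 (0.13 to 0.27) in the Xcl1 or Gzmc high cells and 0.18 (0.16 to 0.20) in the rest. For Cd52 these ratios were 0.32 (0.23 to 0.40) and 0.22 (0.20 to 0.25).

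Cycling DETCs, with at least 2 UMIs of 5 mitotic genes, were the exception for Cd7 among the divisions by state. They numbered 95 and 89 and held 1946 CPM (1826 to 2073) and 1997 CPM (1874 to 2126) of Cd7, below the 2718 and 3136 CPM of the other DETCs. Their Cd7 ratio of 0.037 (-0.093 to 0.17) included 0, and the difference from the non-cycling ratio was -0.17 (-0.30 to -0.040). Cd52 in the same cells was at 1569 CPM (1460 to 1683) and 1995 CPM (1872 to 2124), a ratio of 0.35 (0.21 to 0.48). Its difference from non-cycling DETCs, 0.11 (-0.028 to 0.25), was within counting error. Cycling DETCs were also deeper, with medians of 5177 and 5588 UMIs against 4006 and 3556.5 in the other DETCs. In the deepest of the depth bins described next, the Cd7 ratio was 0.11 (0.066 to 0.15), which lies within the cycling interval. The part of depth in the Cd7 values of cycling DETCs was not tested.

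The ratios were also taken among DETCs of like depth. In 4 bins from 2000 to 7000 UMIs per cell, all 4 Cd7 ratios lay above 0, from 0.23 in the shallowest bin to 0.11 in the deepest, and all 4 Cd52 ratios did, between 0.13 and 0.32. Cd7 itself fell with depth, from 2986 CPM in the shallowest bin to 2432 CPM in the deepest with isotype and from 3501 to 2618 CPM with Skint1 antibody. In 4 bins by mitochondrial share, all Cd7 ratios were between 0.15 and 0.30 and all Cd52 ratios between 0.19 and 0.31. Each of these 16 intervals excluded 0. The bins divide the same DETC counts by which the genes were chosen, so they describe its spread and give no separate support.

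**Figure D4:**
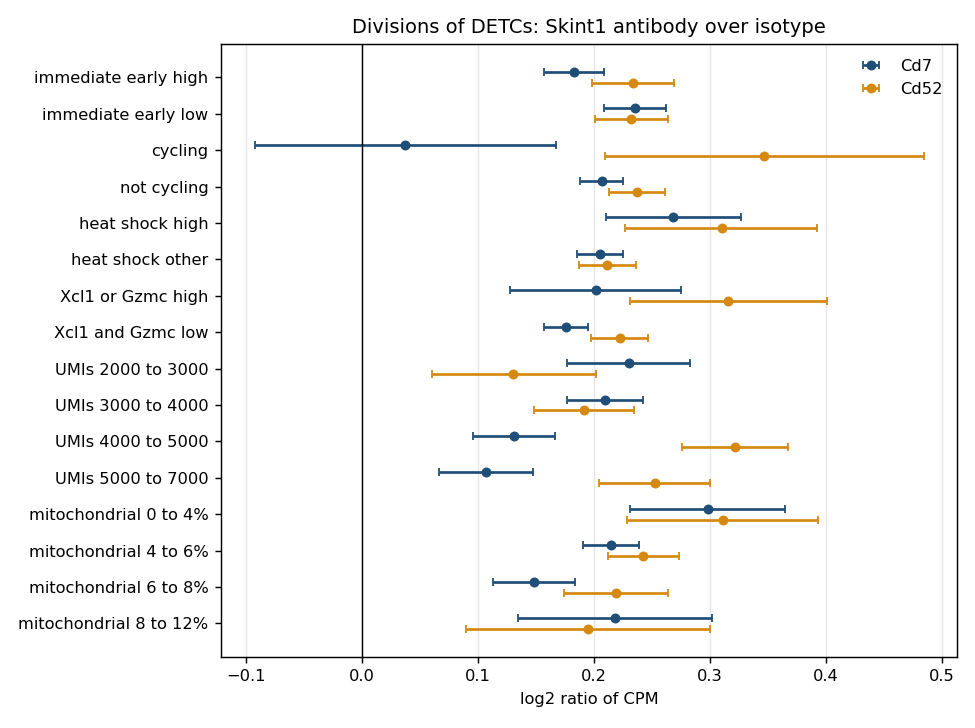
Log2 ratio of CPM, Skint1 antibody over isotype, of Cd7 (blue) and Cd52 (orange) in divisions of DETCs by state, depth and mitochondrial share, with 95% counting intervals; divisions of 1 kind that part all DETCs do not overlap. Of the points shown, the Cd7 ratio of cycling DETCs (0.037) alone has an interval that includes 0.

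In αβ T cells as gated the members parted. Cd7 was higher with Skint1 antibody by a log2 ratio of 0.64 (0.42 to 0.86), from 282 to 459 UMIs. Cd52 was at -0.035 (-0.11 to 0.042), from 2739 and 2793 UMIs. Of 2584 genes with at least 50 CPM in the class, 22.0% were at least 1.1-fold higher, and 1 of the members, Cd7, was among them. The Cd7 ratio of DETCs was therefore below that of αβ T cells, by -0.43 (-0.65 to -0.22), and the Cd52 ratio above it, by 0.28 (0.20 to 0.35). A difference this way of at least 1.1-fold was found for 28.8% of the 2258 genes measured in both classes, and 319 genes had a larger one than Cd52.

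The Cd7 of the αβ T class lay mostly in barcodes that also carried Trdc, the constant region of the γδ receptor. Barcodes with at least 3 Trdc UMIs numbered 18 (9.14% of the class) and 44 (20.7%). They held 51.1% of the class's Cd7 UMIs with isotype and 88.5% with Skint1 antibody, at 1917 and 2097 CPM. In the αβ T cells with no Trdc, 158 and 156 cells, Cd7 went the other way, 189 CPM (157 to 226) and 55.2 CPM (38.0 to 77.5), a log2 ratio of -1.78 (-2.38 to -1.21). With at least 2 Trac UMIs required as well, 102 and 77 cells, it was -2.17 (-3.04 to -1.40), from 99 and 16 UMIs. Free RNA, estimated at 23.4 and 27.5 CPM of Cd7, is a sizeable part of the Skint1 antibody level in both gates. It was not subtracted here. Other genes of the cells without Trdc differed too: Cd3e was at 742 and 403 CPM, Cd3d at 654 and 470 CPM and Il7r at 397 and 570 CPM, and in the stricter gate Cd3e at 864 and 504 CPM and Il17a at 14.7 and 134 CPM. Their part in the Cd7 ratio was not tested. What the Trac and Trdc barcodes are, single cells or 2 cells in 1 droplet, was not tested.

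These Cd7 values rest on few cells. The 10 barcodes with the most Cd7 held 49.6% and 34.9% of the UMIs of the αβ T class, 70.0% and 63.6% in the cells with no Trdc, and 76.8% and 87.5% with at least 2 Trac UMIs as well. Without those 10 in each library, 36 and 12 UMIs remained in the cells with no Trdc, a ratio of -1.55 (-2.62 to -0.57), and 23 and 2 in the stricter gate, -3.09 (-6.22 to -1.07). CD8 cells had a Cd7 ratio of -1.26 (-2.23 to -0.39), from 53 and 14 UMIs, and CD4 cells one of 2.83 (1.34 to 4.79), so the ratios were of opposite sign. Trdc moved the same way as Cd7 in each, from 22 to 2 UMIs in CD8 cells and from 8 to 24 in CD4 cells, and also in regulatory T cells, from 4 to 10. Its part in the Cd7 ratios of these subsets was not tested. The dermal γδ T gate, most of which also met the DETC gate, had 0.60 (0.33 to 0.88), from 177 and 302 UMIs in 36 and 41 cells. Other markers of that gate differed as well: Il17a was at 329 and 10.1 CPM, Rora at 210 and 80.8 CPM and Trdc at 1443 and 2085 CPM, and Tcrg-V5 was found in 2.78% and 12.2% of the cells. Their part in the ratio was not tested. The share of them with a Cd7 UMI was 37.1% (21.5 to 55.1) and 68.3% (51.9 to 81.9) after thinning and 41.7% and 70.7% before it.

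Cd52 in αβ T cells depended on the gate and the subset. In cells without Trdc its ratio was 0.015 (-0.070 to 0.10), and with at least 2 Trac UMIs as well 0.14 (0.026 to 0.25), from 3597 and 3958 CPM. The DETC ratio exceeded the latter by 0.10 (-0.010 to 0.22), which is within counting error. CD8 cells had a Cd52 ratio of 0.33 (0.11 to 0.54) and CD4 cells 0.28 (0.12 to 0.44), both at least as large as the 0.24 of DETCs. The DETC ratio differed from these by -0.086 (-0.30 to 0.13) and -0.038 (-0.20 to 0.12). In the dermal γδ T gate it was 0.15 (-0.047 to 0.34). With at most 5% mitochondrial UMIs the αβ T class gave 0.20, and the DETC ratio exceeded it by 0.066 (-0.055 to 0.19).

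In ILCs neither member differed between the libraries beyond counting error. Cd7 had 23 and 40 UMIs and a ratio of 0.014 (-0.76 to 0.82), so a difference of the size seen in DETCs was not detectable with these counts. Cd52 had 1207 and 2085 UMIs and a ratio of 0.0044 (-0.099 to 0.11), whose upper bound is under the DETC value. Neither was among the 24.1% of 2562 genes that were at least 1.1-fold higher in ILCs. The DETC ratio exceeded that of ILCs by 0.19 (-0.55 to 0.93) for Cd7 and by 0.24 (0.13 to 0.34) for Cd52. Both are past the 1.1-fold step that 38.6% of 2148 genes passed in this comparison.

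The ILC value of Cd52 moved with keratins. Without the barcodes of at least 2% keratin UMIs, 81 and 132 cells remained, Cd52 was at 3198 CPM (3020 to 3383) and 3509 CPM (3360 to 3663), and its ratio was 0.13 (0.031 to 0.24). The DETC ratio then exceeded it by 0.11 (0.0016 to 0.21). The 7 barcodes left out of the Skint1 antibody library held 0 Cd52 UMIs. With each ILC thinned to 2000 UMIs the ratio was 0.17, and with Trac and Trdc both at 0 it was -0.16 (-0.28 to -0.044). DETCs minus ILCs was above 0 for Cd52 under all 13 alternatives, with sizes from 0.085 to 0.73.

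**Figure D5:**
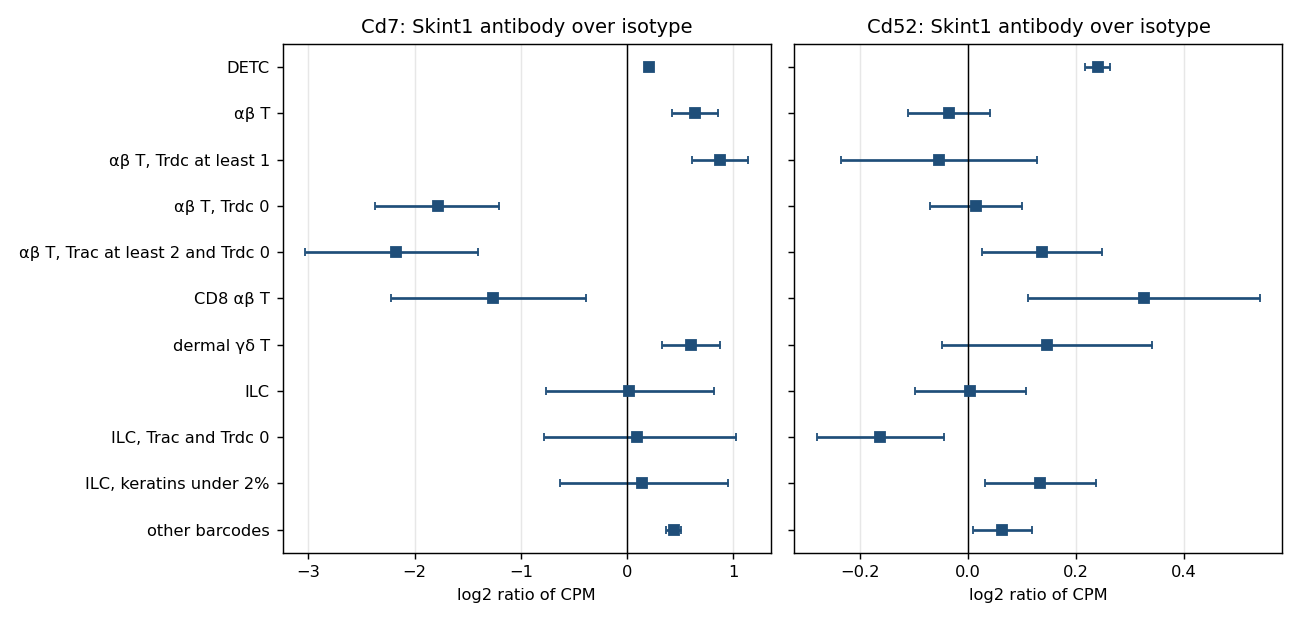
Log2 ratio of CPM, Skint1 antibody over isotype, for Cd7 (left) and Cd52 (right) by cell group, with 95% counting intervals and different axis ranges; some groups are stricter gates of the class above them. Cd7 in αβ T cells lies at 0.64 as gated and at -1.78 without Trdc, while Cd52 in DETCs (0.24) overlaps CD8 cells (0.33).

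Barcodes with 1 to 100 UMIs, which hold RNA from outside cells, carried Cd7 at 1267 and 1361 CPM and Cd52 at 1592 and 1567 CPM. Keratin levels put free RNA at 1.85% and 2.02% of the UMIs of a DETC. In the 420 and 670 kept barcodes that met no gate, Cd7 was at 1359 and 1840 CPM and Cd52 at 2388 and 2496 CPM, both between DETCs and αβ T cells. Their log2 ratios were 0.44 (0.37 to 0.51) for Cd7 and 0.064 (0.0086 to 0.12) for Cd52. The DETC ratios differed from these by -0.23 (-0.30 to -0.16) and 0.18 (0.12 to 0.24). With isotype, 60.5% of these barcodes carried Trdv4.

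The partners of CD7 were measured next. Of 11 genes for its ligands and signalling molecules, 8 had at least 50 CPM in DETCs, 1 of them was at least 1.1-fold higher and 2 at least 1.1-fold lower with Skint1 antibody, and their median log2 ratio was -0.045 against -0.029 for all genes. Over all genes 4.34% were higher and 14.1% lower by this step. Lgals1 was the one higher, at 1385 and 1593 CPM. The regulatory subunit gene Pik3r1 of phosphoinositide 3-kinase was lower, at 196 and 154 CPM (-0.35, -0.42 to -0.27). The adaptor Lat (-0.046), the kinase Lck (-0.0079) and the catalytic subunit Pik3cd (-0.044) had intervals that included 0. The other ligands were at or near 0 in DETCs: Sectm1a had 26 and 19 UMIs and Sectm1b 0 and 0.

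Other GPI-anchored proteins were compared with CD52. Of 18 such genes, counted with the CD52 receptor gene Siglecg, 7 had at least 50 CPM in DETCs, 3 were at least 1.1-fold higher, against 4.34% of all genes, and 0 lower, against 14.1%, with a median of 0.014. Ly6e had a ratio of 0.15 (0.12 to 0.18), Bst2, which tethers virus particles to the membrane, at 333 and 402 CPM (0.27, 0.22 to 0.33), and Ly6a, which encodes Sca-1, at 328 and 400 CPM (0.29, 0.23 to 0.34). Thy1, the most abundant after Ly6e, was at 766 and 756 CPM (-0.020, -0.056 to 0.016). Siglecg had 1 and 0 UMIs in DETCs. Of 25 genes that build and attach the anchor, 5 reached 50 CPM and none was 1.1-fold higher or lower. Dpm3 had the highest level of these, at 170 and 176 CPM (0.050, -0.026 to 0.13).

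Other surface proteins of lymphocytes were counted next. Of 29 genes, 21 reached 50 CPM in DETCs, 0 were at least 1.1-fold higher, against 4.34% of all genes, and 3 lower, against 14.1%. Their median was 0.017, and Cd37, a tetraspanin gene, had the highest ratio at 0.12 (0.052 to 0.18). The T cell receptor subunits Cd3g (9831 and 9953 CPM, 0.018), Cd3e (3835 and 4050 CPM, 0.079) and Cd3d (2384 and 2421 CPM, 0.022) and the phosphatase Ptprc, which encodes CD45 (944 and 956 CPM, 0.019), all lay under the 1.1-fold step. The 3 lower genes were Il2rb, a chain of the IL-2 and IL-15 receptors (-0.26), Cd247, the ζ chain of the T cell receptor complex (-0.21), and the hyaluronan receptor Cd44 (-0.16). Of 83 ribosomal protein genes, 79 reached 50 CPM, 3 were higher and 1 lower, with a median of 0.043. The ribosomal share of UMIs in DETCs was 19.2% and 20.1%, and with CPM taken outside ribosomal protein UMIs the DETC ratios were 0.22 (0.20 to 0.24) for Cd7 and 0.26 (0.23 to 0.28) for Cd52.

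The genes whose levels ran most like each member were sought over 10 cell groups without shared cells in both libraries, 20 points in all, among 2762 genes. The groups of 1 library share its depth and preparation, and 3 of the 10 are divisions of DETCs, so the coefficients describe the split of lineages. Closest to Cd7 were the receptor gene Cd244 (Pearson r of log2 CPM, 0.974), the actin-binding protein gene Avil (0.973), the γ constant region Tcrg-C1 (0.964), the signalling chain Fcer1g (0.958) and the protein kinase A subunit Prkacb (0.954). Closest to Cd52 were the ribosomal genes Rps23 (0.929), Rps13 (0.911) and Fau (0.911), the GTPase Rac2 (0.928) and the splicing-factor kinase Srpk1 (0.917). Between Cd7 and Cd52 themselves r was -0.787. The log2 ratio in DETCs, Skint1 antibody over isotype, was 0.033 for Cd244, 0.0078 for Avil, -0.13 for Prkacb and 0.13 for Rac2.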

How the data were processed

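Single-cell RNA was counted in 2 libraries of sorted epidermal cells, 1 per treatment. The authors made the deposited counts with CellRanger 3.0.2 (10x 3′ kit v3, an mm10 index, GRCm38): raw UMI counts per gene and barcode, with all barcodes kept. The libraries hold 27272211 (isotype) and 32450957 (Skint1 antibody) UMIs. The limits of 500 to 2500 genes and 12% mitochondrial UMIs are those of the study's methods. Doublets were neither called nor removed.

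UMIs were summed per class and library with pandas 2.3.3, scipy 1.17.1 and numpy 2.4.6 under Python 3.11.15. No pseudocount was used except 1 CPM for the likeness of genes. Intervals (95%) are exact Poisson for levels, exact conditional binomial for ratios, Clopper-Pearson for shares and normal for differences of ratios. PCR copies are collapsed by UMI. The ratio script was tested on simulated data.

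Both members, the 5 gene lists, the classes and the alternatives were chosen with earlier results of these data known. The genes named are the members, the most abundant of each list and those past 1.1-fold, the 5 most like each member, and the neighbours in the order of ratios. Cd37 and the named list genes past 1.1-fold were picked after their values were seen, and Sectm1a, Sectm1b and Siglecg for their role. The value of 1 list gene is not reported here.

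Cells are not replicates, so no p-value is given. Protein and promoter sequences of the members were not used here.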

Additional observations from a re-analysis of the deposited data

Results flagged for a closer look

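Some cell groups moved against DETCs, and none of these differences was tested over mice. Cd7 was higher in DETCs with Skint1 antibody but lower in αβ T cells without Trdc, at a log2 ratio of -1.78, in those with at least 2 Trac UMIs as well, at -2.17, and in CD8 αβ T cells, at -1.26. Each rests on 1 library per treatment and on 53 or more UMIs with isotype against 14 to 33 with Skint1 antibody.

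Cd52 was higher in DETCs but lower in ILCs without Trac and Trdc, at -0.16. Keratins stood at 570 CPM with isotype and 4364 CPM with Skint1 antibody in that gate. Their part in the value was not tested in this gate. In ILCs with keratins under 2% of UMIs the ratio was 0.13.

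A signal outside the cells was found for Cd7. Barcodes with 1 to 100 UMIs, which hold no cell, had a log2 ratio of 0.10 (0.043 to 0.16) for Cd7, against -0.023 (-0.078 to 0.032) for Cd52 and -0.23 for Trdc.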

How the results depend on the processing

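Of 122 values under other settings, 90 stayed within the counting interval of the reported value and 32 did not, and 21 had another sign. In 8 of the 21 the reported interval excluded 0: Cd7 in αβ T cells with Trdc 0 (-1.78) or with Trac at least 2 and Trdc 0 (-2.17), these without their 10 highest cells (-1.55 and -3.09), and DETCs minus those cells (1.98, 2.38, 1.75 and 3.29). With Trac at least 2 and Trdc 0 Cd52 was 0.14, DETCs minus it 0.10. Without the 10 highest cells, Cd7 in αβ T cells was 1.01, DETCs minus αβ T cells -0.80 and DETCs minus ILCs -0.59. Cd7 in DETCs was 0.23 with no upper limit on genes, 0.23 with Trdv4 required and 0.24 relative to the median gene, and Cd52 in DETCs 0.27 relative to it. With at most 5% mitochondrial UMIs, Cd52 was 0.27 in DETCs, 0.20 in αβ T cells and -0.46 in ILCs, with differences of 0.066 and 0.73. Cd52 in ILCs, and DETCs minus ILCs, were -0.11 and 0.36 with no upper limit on genes, -0.16 and 0.40 with Trac and Trdc 0, 0.13 and 0.11 with keratins under 2%, 0.14 and 0.085 with equal weight per cell, and 0.17 and 0.088 with thinning. The cause of the other moves was not tested. Cd7 in DETCs ranged from 0.21 to 0.24 and Cd52 from 0.22 to 0.27 over 11 alternatives. DETCs minus αβ T cells and minus ILCs stayed above 0 for Cd52 in all 13 alternatives each. Against αβ T cells the interval included 0 with at most 5% mitochondrial UMIs (-0.055 to 0.19) and with Trac at least 2 and Trdc 0 (-0.010 to 0.22). CD8 and CD4 cells were not among these alternatives. DETCs minus each was below 0, at -0.086 and -0.038, with intervals that included 0. The gates with Trdc 0 alone and with keratins under 2%, and those without their 10 highest cells, were added after seeing the data. Few cells and a low level limit Cd7 in ILCs, at 23 and 40 UMIs. No paired analysis was possible because each treatment has 1 library.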
